A study of Drosophila melanogaster with 14 samples.

Results

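Some stretches of the genome in wing discs gave mononucleosome peaks but no nucleosome-free peak. There were 1241 such regions among the 19757 mononucleosome regions of the series, and among the 16405 regions with a peak in at least 2 libraries they made up 7.56%. They were found by merging the mononucleosome peaks of all 14 libraries wherever peaks overlapped or touched. The members were thus chosen by measured peaks: a merged region was kept if at least 2 libraries had a peak in it and no nucleosome-free peak of any of the 14 libraries overlapped it. The kept regions are called members below, and the other 15164 mononucleosome regions of at least 2 libraries, all of which overlapped a nucleosome-free peak, are called other regions. The members held 4990 of the 176182 mononucleosome peaks, or 2.83%.

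The series is a time course of chromatin accessibility in the wing imaginal disc of Drosophila melanogaster, the larval epithelium that forms the adult wing and part of the thorax. ATAC-seq was used, in which a transposase cuts and tags accessible DNA. The groups were regenerating discs at 0 h, 15 h and 25 h, undamaged discs of the third larval instar outside the time course, called L3, and undamaged control discs at 0 h, 15 h and 25 h. Each of the 7 groups had 2 libraries, and 10 discs were used per genotype and condition. The labels call regeneration and control separate genotypes, so damage and genotype cannot be told apart in any comparison of these discs. The alleles, drivers and way of damage, and any transgene that the groups share, are given neither in the labels nor in the other sources used here. The replicates carry only numbers, so the p-values below measure the spread between libraries, which may be technical. The discs are mixtures of cells, and a peak missing from a library does not tell fewer cells of a type from a weaker signal per cell. Gene expression was not analysed here, so the labelled tissue was not checked by its transcripts, and the genes of the disc and of other cell types were read only through their regions.

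DNA in the nucleus is wrapped around histone cores to form nucleosomes, and the transposase cuts mainly in the linkers and in stretches that nucleosomes have left. Short fragments come from nucleosome-free DNA, such as active promoters and enhancers, and longer fragments that span a single wrapped core are sorted as mononucleosome fragments. At an active promoter the open stretch just upstream of the start of transcription is typically followed by a well-placed first nucleosome of the gene. Exons of genes tend to carry more nucleosomes than the introns between them, and their DNA is richer in G and C.

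The sequences at 6 members show the kinds of DNA involved: an AT-rich promoter present in every library, the GC-rich start of a gene, exons that code for protein, and introns called mainly in control discs. Each is 150 bp around the strongest summit, on the plus strand of Release 6 of the genome (dm6), and the capitals mark the 11 bases centred on the summit.
CG8032 promoter member, chr3R:8663945-8664094: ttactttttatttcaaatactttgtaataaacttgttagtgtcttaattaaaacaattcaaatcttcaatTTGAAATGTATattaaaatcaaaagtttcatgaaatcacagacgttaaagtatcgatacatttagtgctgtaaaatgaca
DCAF12 promoter member, chr3R:12016648-12016797: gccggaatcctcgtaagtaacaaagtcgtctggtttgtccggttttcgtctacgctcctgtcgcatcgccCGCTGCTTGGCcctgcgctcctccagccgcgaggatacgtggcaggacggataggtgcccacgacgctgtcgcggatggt
Gr21a coding exon member, chr2L:782420-782569: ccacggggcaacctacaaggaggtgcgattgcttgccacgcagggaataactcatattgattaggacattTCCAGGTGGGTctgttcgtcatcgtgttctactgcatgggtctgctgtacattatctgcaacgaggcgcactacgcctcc
nolo coding exon member, chr2L:21727210-21727359: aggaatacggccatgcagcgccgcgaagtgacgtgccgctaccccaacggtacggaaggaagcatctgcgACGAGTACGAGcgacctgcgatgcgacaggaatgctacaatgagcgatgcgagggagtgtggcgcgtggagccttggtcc
elB intron member, chr2L:14398057-14398206: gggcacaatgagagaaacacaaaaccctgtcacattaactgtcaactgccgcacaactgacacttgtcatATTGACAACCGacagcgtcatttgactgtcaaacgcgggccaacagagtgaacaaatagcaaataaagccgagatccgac
CG14636 intron member, chr3R:4213844-4213993: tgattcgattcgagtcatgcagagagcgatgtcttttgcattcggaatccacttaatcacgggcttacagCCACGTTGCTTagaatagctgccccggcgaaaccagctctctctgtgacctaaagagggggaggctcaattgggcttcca
The CG8032 window had 22.7% G and C and held tatcgata, the core of the site of the factor DREF, on its downstream side. The DCAF12 and nolo windows each had 62.0% G and C, the Gr21a window 52.7%, the CG14636 window 51.3% and the elB window 46.7%.

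Members lay above all in exons that code for protein. By the annotation of the base at the strongest summit, 499 members were in coding exons, or 40.2%, against 6.19% of other regions and 5.28% of the 28242 nucleosome-free regions of at least 2 libraries. Coding exons took up 15.9% of the bases of the 6 chromosome arms. Promoters, defined here as 200 bp on either side of a start of transcription, held 153 members, or 12.3%, against 34.9% of other regions, 28.6% of nucleosome-free regions and 6.15% of the bases. Introns held 20.5% of members and 32.9% of other regions, and intergenic DNA held 23.0% of members and 20.6% of other regions. The absence of nucleosome-free peaks is part of how members were chosen, so these shares are a description of the 2 sets and carry no test.

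**Figure D1:**
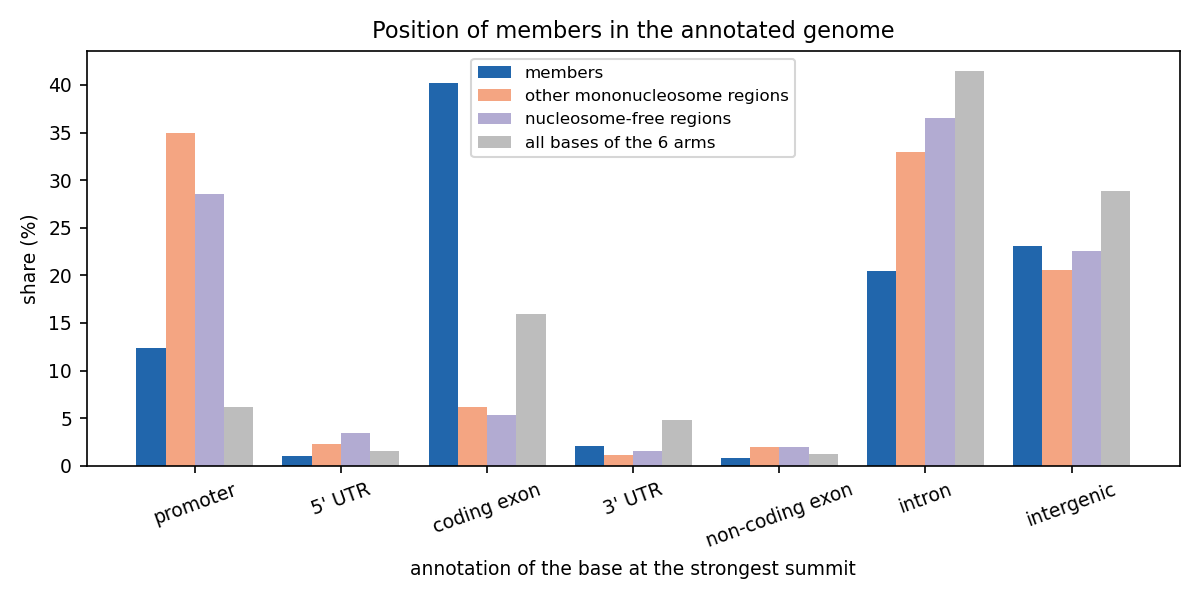
The plot of annotation gives, on the vertical axis, the percent of regions whose strongest summit falls in each class, for members, other mononucleosome regions, nucleosome-free regions and all bases of the 6 arms. Coding exons hold 40.2% of members against 6.19% of other regions, and promoters hold 12.3% of members against 34.9% of other regions.

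The make-up of the members changed with how many libraries had them. Of the members, 511 had a peak in exactly 2 libraries and 263 in 3 libraries, while 26 had a peak in all 14. Of other regions, 7475 had a peak in all 14 libraries and 1042 in exactly 2. Among members of 2 libraries 46.8% were in coding exons and 7.44% at promoters. Among the 57 members of 12 to 14 libraries 7.02% were in coding exons and 59.6% at promoters. The same 2 classes among other regions ran from 12.1% in coding exons and 15.1% at promoters for 2 libraries to 2.98% and 42.5% for 12 to 14 libraries. Members seen in few libraries were thus mostly outside promoters, and the few seen in nearly every library were mostly at promoters.

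**Figure D2:**
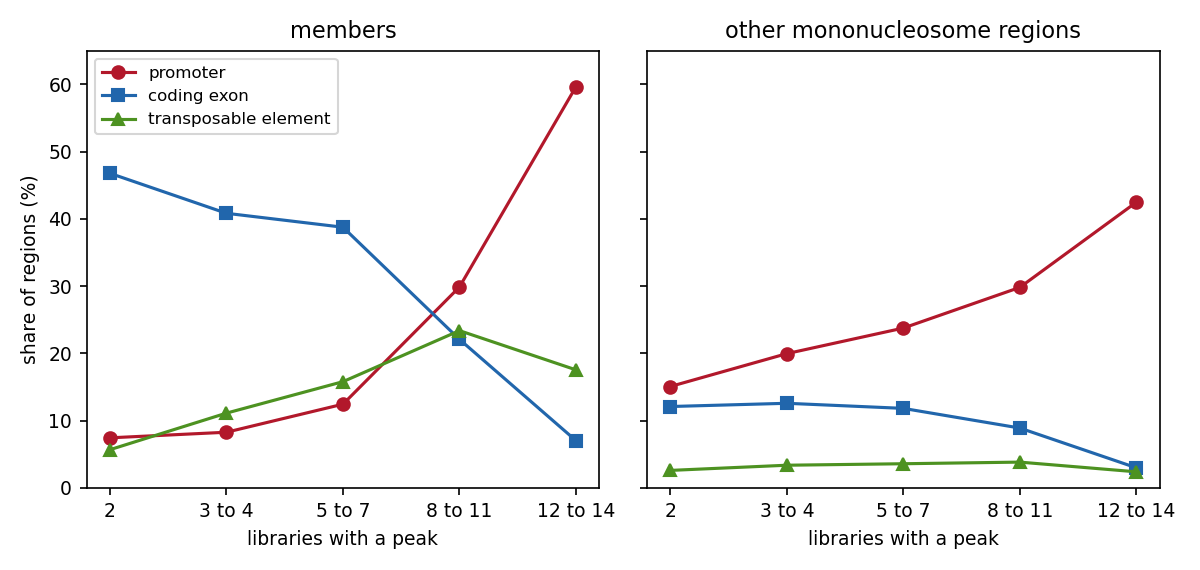
The plot of annotation by presence gives the percent of regions at promoters, in coding exons and over annotated transposable elements against the number of libraries with a peak, for members on the left and other mononucleosome regions on the right. Among members the promoter share goes to 59.6% and the coding exon share to 7.02% at 12 to 14 libraries.

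Of the 26 members found in all 14 libraries, 20 were at promoters, 2 in coding exons, 2 in introns, 1 in a 5′ UTR and 1 between genes. Ranked by the authors' fold within each list, the strongest was at chrX:19703892-19704581, 87 bp upstream of CG14232 and inside CG14230. Its fold over the caller's local background was 8.80 and 9.90 in regenerating discs and 7.86 and 6.68 in control discs at 0 h. The regenerating libraries of 15 h had 6.99 and 6.44, against 5.42 and 5.02 in control libraries. The regenerating libraries of 25 h had 7.37 and 7.15, against 6.81 and 6.17 in control libraries, and the L3 libraries had 9.77 and 8.84. Every library thus had a clear peak there, and the nearest nucleosome-free peak of any library was 2080 bp away. Fold depends on each library's depth, so each value describes the peak within 1 list only, and no comparison between libraries was made with it.

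The next member by rank lay in the 5′ UTR of Uggt, which encodes the glucosyltransferase that marks misfolded glycoproteins in the endoplasmic reticulum (chr3L:18872551-18873171). Its summit was 202 bp downstream of the start of transcription, and its fold ran from 5.45 in the first regenerating library of 15 h to 11.5 in the second regenerating library of 0 h. The AT-rich member whose sequence is given above lay at chr3R:8663647-8664541, 95 bp upstream of CG8032 and within p, a gene needed for eye pigment granules. Its fold ran from 4.50 in the second control library of 15 h to 6.97 in the first control library of 15 h. CG7806 had a member in a coding exon, 206 bp downstream of its start (chr2L:8311187-8311857). CG30373 and CG1309 had members 30 and 41 bp upstream of their starts, and CG1603 had a member 192 bp downstream. An intron of Prosap, which encodes a scaffold protein of synapses, had a member over annotated HMS-Beagle and roo elements (chr2R:14105847-14106290).

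The rest of the members found in all libraries were named after their values were seen. They included promoters of cid, the centromeric histone H3 variant, Prim1, the catalytic subunit of DNA primase, RPA3, a subunit of the replication protein A complex, CCT1, a chaperonin subunit, and Rpt2, an ATPase of the proteasome. Upf3, which acts in nonsense-mediated RNA decay, Cog7, a subunit of a Golgi tethering complex, PIG-V, a mannosyltransferase of GPI anchors, and imd, the adaptor of an innate immune pathway, also had promoter members in all libraries.

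Promoter members sat mostly downstream of the start. Of the 153 promoter members, 71.2% had their summit downstream of the nearest start, against 65.4% of the promoter regions among other regions and 24.8% of those among nucleosome-free regions. More than 100 bp downstream lay 56.2% of promoter members, 36.0% of other promoter regions and 3.93% of nucleosome-free promoter regions. The median promoter member was 110 bp downstream of its start, against 63 bp downstream for other regions and 24 bp upstream for nucleosome-free regions. Over all members, the bin from 100 to 200 bp downstream held 86 members, or 6.93%, the highest share of any 100 bp bin within 1000 bp of a start. The same bin was the highest for other regions, with 1911 regions or 12.6%, so this position is not particular to members.

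**Figure D3:**
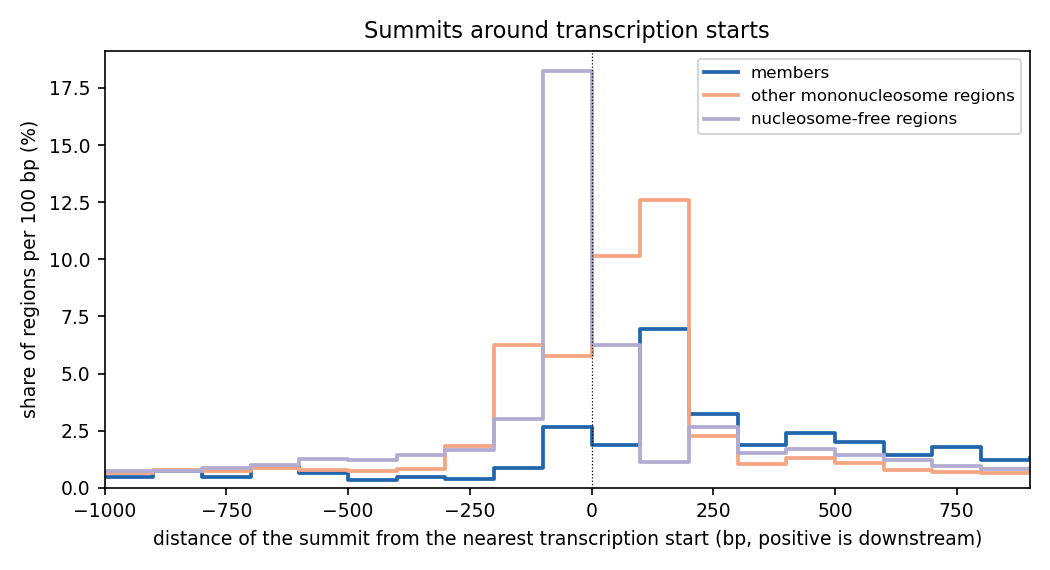
The plot of summits around starts gives the percent of regions per 100 bp against the distance of the summit from the nearest start of transcription in bp, with positive values downstream. Members peak between 100 and 200 bp downstream with 6.93%, as do other mononucleosome regions with 12.6%. Nucleosome-free regions peak within the 100 bp upstream of the start.

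Motifs at promoters with members were counted as a description, with no test. In the 300 bp from 250 bp before to 50 bp after the start, on both strands, the DREF core TATCGATA was found at 21 of 147 protein-coding starts with a member, or 14.3%. It was found at 13.3% of starts with another mononucleosome region and at 9.36% of all 13945 protein-coding starts. GGTCACAC, the core of a motif common at housekeeping promoters, was at 14.3% of member starts, 13.7% of the starts of other regions and 7.70% of all starts. Among the 34 starts with a member in 12 to 14 libraries both were at 23.5%. GAGAGAG, which the GAGA factor binds, was at 3 member starts or 2.04%, against 9.96% for other regions and 5.87% of all starts. TATAAA was at 52.4% of member starts, 40.8% for other regions and 45.8% of all starts. None of these motifs contains another, and a match is only a run of letters.

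Members in coding exons lay in long coding stretches. The unbroken coding stretch around their summit had a median of 824 bp, against 561 bp for other regions in coding exons and 727 bp over all coding bases. Their G and C content had a median of 55.3%, against 54.7% for other regions in coding exons. Over all members the median was 51.3% G and C, against 48.0% for other regions, 42.2% for the 6 arms and 53.4% for coding exon bases. Within the other classes the sets lay closer, at 48.0% against 47.3% in introns, 48.7% in both between genes and 48.7% against 46.7% at promoters. Among regions of 12 to 14 libraries members had the lower median, 45.3% against 48.0%. Pairs of A or T bases made up 22.5% of pairs within the 11 bp at the summit of members and 25.4% about 20 bp to either side, against 25.7% and 30.7% in other regions.

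By gene body, Myo81F had the most members, 12, none of them in coding exons. Ten-a, which encodes a teneurin that pairs synaptic partners, had 8 members of which 7 were in coding exons. CG17684 had 8, and Msp300, the giant nesprin that anchors nuclei and mitochondria, had 6, all in coding exons. Rbfox1, an RNA-binding protein, also had 6, of which 4 were in coding exons. The strongest Ten-a member by rank, chrX:12274008-12274358, had 63.3% G and C and a peak in 6 libraries, 1 of regenerating, 3 of control and 2 of L3 discs. In Msp300 the strongest, chr2L:5138575-5138838, had a peak in 2 regenerating and 2 control libraries and in no L3 library.

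By nearest start of transcription, the 1241 members belonged to 989 genes, of which 845 had 1 member. The genes with the most members had them far from the start. RYa, which encodes a neuropeptide precursor, had 16 members, from 9190 to 147530 bp away, 2SrRNA:CR45864 had 9, from 31046 to 121692 bp away, and Myo81F had 8, from 38023 to 458411 bp away. CR41519 and CG42598 had 7 each, and CG14621, CG17684 and CR14578 had 6 each. The strongest member nearest to 2SrRNA:CR45864, a gene of the ribosomal DNA on chromosome X, was at chrX:23413207-23413614 and had a peak in 12 libraries. The strongest nearest to Myo81F was at chr3R:108173-108933, 458411 bp from the start, with a peak in 10 libraries. Reads of repeated DNA can be placed at more than 1 copy, and how the authors' mapping treated them is not stated in any source used here.

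Annotated transposable elements overlapped 133 members, or 10.7%, against 2.80% of other regions. Among members, the share was 5.68% for those in 2 libraries, 23.4% for those in 8 to 11 and 17.5% for those in 12 to 14. Between genes 30.4% of members lay over an element, and in introns 16.9%. The families met most often were Rt1b and roo, with 14 members each, then BS, INE-1, Max and diver with 6 each. The reference annotation holds 60 copies of Rt1b, 144 of roo and 2235 of INE-1. By rank the strongest members over elements were near CG32115 (Rt1b), near 28SrRNA-Psi:CR45860 (R1A1), in an intron of pyd (1731 and 297) and near CG4835 (Max). Whether the strains carry these elements at the annotated places cannot be read from peak lists.

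Members were narrower and weaker than other regions. Their median width was 425 bp, with quartiles of 337 and 556 bp, against 571 bp, with quartiles of 417 and 835 bp, in other regions. Regions of more libraries were mostly wider, and other regions mostly had more libraries. At 2 libraries members were the wider, at 375 against 326.5 bp, as at 3 to 4 (438 against 385 bp). They were also wider at 5 to 7 (512 against 435 bp) and 8 to 11 libraries (495 against 483 bp). Only at 12 to 14 were they narrower, at 613 against 712.5 bp. The rule bears on width, since a wider region meets a nucleosome-free peak more easily. The authors' fold had a median of 3.02 over the peaks of members and 4.67 over the peaks of other regions. The pile-up at the summit, solved from the authors' fold and p, had a median of 30 fragments in members and 60 in other regions, over a local background of 8.96 and 10.7 fragments. Only 58 members, or 4.67%, ranked above the middle of their lists by fold. The widest member was an intron region of CG8219 of 2054 bp (chr3L:6200796-6202849), followed by intron DNA of spok, an enzyme of ecdysone synthesis, with 1801 bp, and a coding exon of Mrtf with 1473 bp. That a member has no nucleosome-free peak says only that none passed the authors' threshold at this depth.

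The nearest nucleosome-free peak of any library was 2080 bp away in the median, with quartiles of 815 and 4957 bp. It was more than 1000 bp away for 877 members, or 70.7%, and within 200 bp for 65. Promoter members were closest, with a median of 1288 bp, and the medians of coding exon, intron and intergenic members were 2177, 2536 and 2243 bp. The members just inside the rule were an intron region of mmd near mir-927, which touched a nucleosome-free peak, a region in a coding exon of CG6028 at 1 bp and a region at the promoter of Svil at 2 bp. Just outside it were regions in introns of cv-c and DAAM and at the promoter of LysS, which overlapped a nucleosome-free peak by 1, 2 and 2 bp. The 511 members of 2 libraries had a median width of 375 bp and 46.8% in coding exons, and the 1793 regions without nucleosome-free peaks that only 1 library had, just outside the rule, had 259 bp and 42.7%.

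The number of members per library ran from 137 to 601. At 0 h the regenerating libraries had 137 and 215 members, against 285 and 222 in control libraries. At 15 h the regenerating libraries had 567 and 344, against 345 and 601 in control libraries. At 25 h the regenerating libraries had 460 and 488, against 301 and 277 in control libraries. The L3 libraries had 299 and 413. At 0 h both regenerating libraries lay below both control libraries and at 25 h above them, while at 15 h the groups overlapped.

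Over the time course regenerating libraries had 368.5 ± 167 members and control libraries 338.5 ± 135 (SD, n = 6 each; exact permutation within times, two-sided, p = 0.602, adjusted p = 0.964 over 6 tests). Members were 3.03 ± 1.32% of the mononucleosome regions of regenerating libraries and 2.81 ± 1.05% of those of control libraries (exact permutation p = 0.593, adjusted p = 0.964). The median width of peaks in members was 304 ± 23.4 bp in regenerating and 293 ± 12.8 bp in control libraries (exact permutation p = 0.130, adjusted p = 0.778). The smallest p that the 216 orders allow is 0.00926. L3 libraries had 356 ± 80.6 members (SD, n = 2), which is 17.5 more than control libraries (exact permutation over 28 splits, two-sided, p = 0.929, adjusted p = 0.964, where the smallest possible is 0.0357). None of these 6 tests, which also covered the share and width in L3 libraries, passed the threshold of 0.05, which does not show that the groups are alike.

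The 2 ends of the time course differed in direction. The difference between regenerating and control libraries was -77.5 members at 0 h, -17.5 at 15 h and 185 at 25 h, so that the difference at 25 h exceeded that at 0 h by 262.5 members. As a share of each library's regions it exceeded it by 2.14 percentage points. The exact permutation p of each was 0.0556, which is the smallest that the 36 orders can give, so this design cannot pass 0.05. This contrast was not among the 6 tests above. Groups that lie apart in opposite directions at the 2 times must give this p, so it adds nothing to the counts. As a measure of depth, the genome background of mononucleosome fragments was 6.41 and 8.36 in regenerating against 8.93 and 8.53 in control libraries at 0 h. At 25 h it was 7.24 and 8.87 in regenerating against 8.29 and 9.38 in control libraries. The nucleosome-free background was 2.86 and 3.10 in regenerating against 1.62 and 2.83 in control libraries at 0 h. At 25 h it was 2.99 and 3.67 in regenerating against 2.46 and 3.01 in control libraries. At both times the regenerating libraries had the lower mean mononucleosome background and the higher mean nucleosome-free background. Whether depth bears on the change of direction was not tested.

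Coding exon members had the widest range across libraries of any class of annotation, from 15 to 244 per library. Promoter members ran from 56 to 94. At 0 h regenerating libraries had 15 and 40 coding exon members, against 71 and 49 in control libraries. At 15 h regenerating libraries had 227 and 163, against 83 and 244 in control libraries, and at 25 h 168 and 219, against 104 and 106. The L3 libraries had 90 and 72. Of promoter members there were 62 and 81 in regenerating against 70 and 79 in control libraries at 0 h, and 56 and 75 against 64 and 68 at 25 h. For coding exon members the difference between regenerating and control libraries at 25 h exceeded that at 0 h by 121 members per library (exact permutation p = 0.0556, again the smallest possible). In other regions the share in coding exons ran from 3.21% in the first regenerating library of 0 h, which also had the fewest coding exon members, to 6.51% in the first regenerating library of 15 h.

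**Figure D4:**
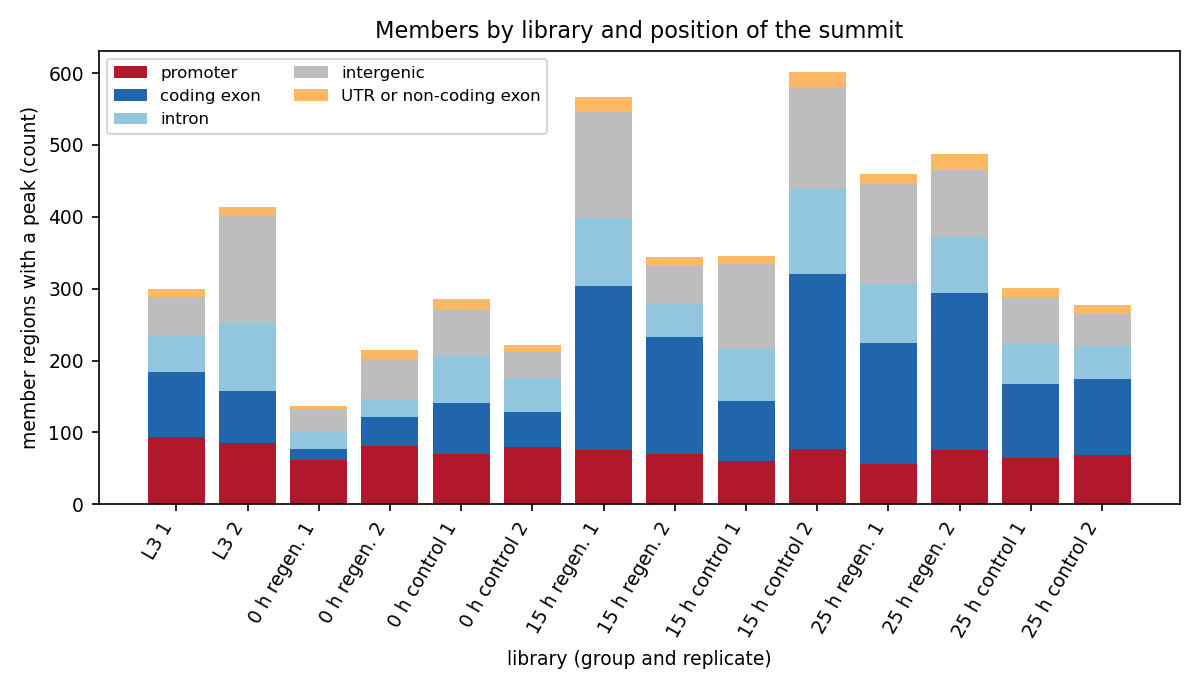
The plot of members by library gives the number of member regions with a peak in each of the 14 libraries, stacked by the annotation of the summit. Promoter members stay between 56 and 94 per library, while coding exon members run from 15 in the first regenerating library of 0 h to 244 in the second control library of 15 h.

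Across the 14 libraries the number of members rose with the mononucleosome background only weakly, with Pearson r = 0.398 (permutation p = 0.159, adjusted 0.317 over 2 relations) and Spearman rho = 0.323 (permutation p = 0.259). Leaving out the 2 libraries whose background was farthest from the median gave r = 0.282. Against the nucleosome-free background r was 0.289 (permutation p = 0.320) and rho 0.147 (permutation p = 0.615). Libraries shared few members. Of the members that either library of a pair had, replicates shared a median of 28.03%, libraries of the same time and different treatment 25.5% and other pairs 23.5%. For other regions these shares were 80.3%, 79.0% and 77.9%. Most members had peaks in few libraries, so pairs share fewer of them than of other regions by construction. Over members, replicate pairs ran from 25.7% to 35.4% and the last kind of pair from 13.0% to 37.7%, so these kinds overlapped.

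By group, 83 members, or 6.69%, had a peak in all 7 groups, against 65.2% of other regions. Peaks in both regenerating and control libraries were found for 799 members, or 64.4%, against 91.5% of other regions. Only regenerating libraries had 167 members, or 13.5%, only control libraries had 96, or 7.74%, and only L3 libraries had 6. Among other regions these shares were 2.12%, 1.25% and 0.145%. There were 6 libraries each of regenerating and control discs and 2 of L3, and a member of 2 libraries is found in a single treatment far more easily than a region of many.

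Calls at single times were made among the members that 2 or more of the 4 libraries of a time had. A member present in both regenerating and neither control library was called gained with damage, and a member present in both control and neither regenerating library was called lost. With 2 libraries against 2 these calls carry no p. At 0 h 16 of 212 members were gained, against 1.83% of all mononucleosome regions tested, and 25 were lost, against 2.23%. At 15 h 55 of 542 were gained, against 3.84%, and 46 were lost, against 1.58%. At 25 h 84 of 381 were gained, or 22.0%, against 3.56%, and 34 were lost, or 8.92%, against 3.6%.

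Since most members had peaks in few libraries, these shares exceed the background by construction, and the members in exactly 2 of 4 libraries are the closer comparison. At 25 h 84 of the 229 members in exactly 2 libraries were gained, or 36.7%, and 34 were lost, or 14.8%. Over all mononucleosome regions in exactly 2 libraries 25.4% were gained and 25.7% lost at 25 h. At 0 h 15.7% of such members were gained and 24.5% lost, against 14.7% and 17.9% of all. At 15 h 16.7% were gained and 13.9% lost, against 23.8% and 9.78% of all. Coding exons held 1 of the 16 members gained at 0 h, 29 of the 55 gained at 15 h, or 52.7%, and 34 of the 84 gained at 25 h, or 40.5%, beside 40.2% of all members. They held 7 of the 25 lost at 0 h, 9 of the 46 lost at 15 h and 7 of the 34 lost at 25 h. The libraries themselves differed by time in the share of their members in coding exons. It was 10.9% to 24.9% at 0 h, 24.1% to 47.4% at 15 h and 34.6% to 44.9% at 25 h. Some calls came back at another time: 7 members were gained at both 15 and 25 h, 4 at both 0 and 25 h and 1 at both 0 and 15 h. Lost at both 15 and 25 h were 4 members, at both 0 and 25 h 5 and at both 0 and 15 h 2.

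Elements lay under 8 of the 16 members gained at 0 h, 5 of the 55 gained at 15 h and 14 of the 84 gained at 25 h. Of lost members they lay under 5 of 25 at 0 h, 12 of 46 at 15 h and 6 of 34 at 25 h. Over all members the share was 10.7%, but it was 5.68% for those in 2 libraries and 23.4% for those in 8 to 11. The called members were not matched for the number of libraries. Among the members gained at 0 h, the 4 of highest rank all lay over elements. These were in an intron of pyd, which encodes a ZO protein of cell junctions, near CG32440 (an I element), in an intron of Dbp80 (an S element) and near disco (roo). The pyd and disco members had a peak in both regenerating libraries of 0 h and in 1 of 15 h, and in no control or L3 library. At 15 h the first was the DCAF12 region whose sequence is given above (chr3R:12016503-12016909), 194 bp downstream of the start of a substrate receptor gene of a ubiquitin ligase. Both regenerating libraries of 15 h had it, with a fold of 4.36 and 4.52, and neither control library of that time. It also had a peak in 1 regenerating and 1 control library at 0 h, 2 regenerating and 1 control library at 25 h and 1 L3 library, so the pattern was not repeated as a full separation. The others named at 15 h were near His4:CG33909, a copy in the histone gene cluster, in an intron of CG17684 and near Cadps. At 25 h the gained members of highest rank were near ppk24 (diver), CG14621, mir-10404-5 and Dscam4 (Rt1a). The CG14621 region had a peak in 12 libraries, all but the control libraries of 25 h.

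At 25 h, lost members included the promoter of REPTOR-BP, a bZIP partner in the response to TOR signalling (chr2L:10264123-10264372). Neither regenerating library of 25 h had a peak, against a fold of 5.45 and 4.23 in the control libraries of that time. It was present in 2 regenerating and 1 control library at 0 h and in no library of 15 h. The promoter of Cnot4, a ubiquitin ligase of the deadenylation machinery, had a peak in 0 of 2 regenerating and 2 of 2 control libraries at 25 h, and in 10 libraries in all. Promoters held 2 of the 84 members gained at 25 h and 10 of the 34 lost, beside 12.3% of all members. In the libraries of 25 h they held 12.2% to 24.5% of the members of each library. Lost members of highest rank at 15 h, besides the region near CG32115, were in introns of DIP-lambda and CG44153 and near CR14578.

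Over the whole time course a member was called more frequent in a treatment if at least 5 of 6 libraries of it and at most 1 of 6 of the other had it. Of 1126 members with peaks in at least 2 of the 12 libraries, 7 were more frequent in regenerating discs, against 0.611% of all regions tested, and 6 in control discs, against 0.46%. As shares of members these were 0.622% and 0.533%, near the background. The call asks for at least 5 libraries, which most members did not have. The 7475 other regions with a peak in all 14 libraries could not be called either. These shares were not matched for the number of libraries, so their nearness to the background says little about the members. Of the 7 members 5 lay over transposable elements, and of the 6 members 2 did. Elements lay under 10.7% of all members, but under 15.8% of those in 5 to 7 libraries and 23.4% of those in 8 to 11. All of them lay in introns or between genes.

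The strongest of these was an Rt1b element 10921 bp upstream of CG32115 (chr3L:12924467-12924737). No regenerating library had a peak there at any time. The control libraries had a fold of 8.46 and 7.76 at 0 h, then 12.01 and 8.44 at 15 h, then 7.96 and 7.32 at 25 h, and the L3 libraries had 8.57 and 6.87. Its rank was at the 87.4th percentile of the lists in the median, where members had a median of 13.3. The 6 control libraries all had the peak, a separation close to what the call itself asks for. The 2 L3 libraries, which the call did not use, had it as well. An F element in an intron of Mrtf, a coactivator of serum response factor (chr3L:2754692-2754981), likewise had a peak in 0 of 6 regenerating and 6 of 6 control libraries, and in 1 L3 library. Its fold in control libraries ran from 3.44 to 4.62.

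The reverse was seen at a gypsy element 217716 bp downstream of the start of flam, the piRNA cluster that silences elements in ovarian follicle cells (chrX:21851093-21851495). All 6 regenerating libraries had a peak, with a fold of 3.37 and 4.49 at 0 h, then 4.09 and 2.88 at 15 h, then 3.40 and 3.85 at 25 h, and no control or L3 library had one. A BS element 7231 bp upstream of CG32198 had a peak in 6 of 6 regenerating libraries, 1 of 6 control libraries and 1 L3 library. A diver element near ppk24 had a peak in 5 of 6 regenerating libraries, 1 of 6 control libraries and 1 L3 library. The difference between these groups was present already at 0 h, and it cannot be told apart from the difference in genotype.

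Away from annotated elements, an intron of elB, a zinc finger gene of appendage and tracheal development, had a member at chr2L:14398053-14398526, whose sequence is given above. It had a peak in 1 of 6 regenerating libraries, with a fold of 2.53, and in 5 of 6 control libraries, with a fold of 2.39 to 3.48, and in neither L3 library. The member in an intron of CG14636, where aux, the clathrin uncoating factor auxilin, is also annotated (chr3R:4213738-4214459), had a peak in 0 of 6 regenerating and 5 of 6 control libraries, and in neither L3 library. These peaks were weak, at a pile-up of 24 to 33 fragments, and the elB and CG14636 regions had a median percentile by fold of 9.52 and 11.2 in their lists.

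**Figure D5:**
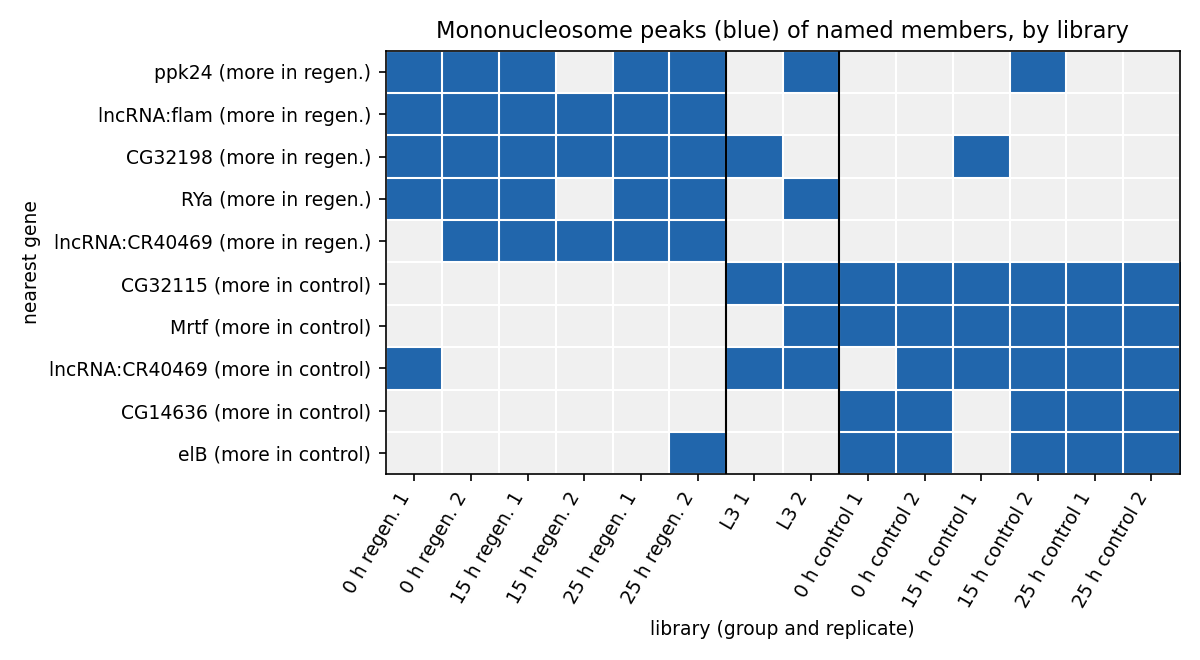
The plot of presence shows in blue each library that had a mononucleosome peak in the 5 highest-ranking members called more frequent in regenerating discs (top) and in control discs (bottom), named by the nearest gene. The member near flam has a peak in 6 of 6 regenerating and 0 of 6 control libraries, and the member near CG32115 in 0 of 6 regenerating and 6 of 6 control libraries.

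L3 discs were set against the control discs of the time course. Among 713 members with a peak in at least 2 of these 8 libraries, 31 had a peak in both L3 libraries and at most 1 of 6 control libraries, or 4.35%, against 1.62% of all regions tested. At least 5 of 6 control libraries and no L3 library had 4 members, or 0.561%, against 0.428%. Of the 31 members, 10 were at promoters and 8 in coding exons, or 32.3% and 25.8%, beside 12.3% and 40.2% of all members. In the 2 L3 libraries promoters held 31.4% and 20.6% of members, and coding exons 30.1% and 17.4%. Only members in 2 or 3 of the 8 libraries can be called so, and of the 491 members in 2 or 3 libraries 6.31% were, against 9.30% of the 2560 regions of all kinds in 2 or 3 libraries. The call asks for 2 libraries on the L3 side and 5 on the control side, so the counts of the 2 directions are not set against each other. Promoters of CG3309 and mei-217, a meiosis gene, were among them, as were an intron of wfs1, which encodes the endoplasmic reticulum protein wolframin, and the coding exon of Gr21a shown above. Gr21a, a subunit of the carbon dioxide receptor, had its member at chr2L:782313-782695, with a fold of 3.78 and 2.93 in L3 libraries. No control library had it, while 2 regenerating libraries of 15 h and 1 of 25 h did. The nolo coding exon shown above, nearest to the start of step (chr2L:21727055-21727515), had a peak in neither L3 library and in 5 of 6 control and 4 of 6 regenerating libraries.

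Genes of damage, growth and patterning were read through the nearest start. Over all 17683 genes, 5.59% had a member. None of the 14 genes of the JNK pathway, the stress kinase cascade of wound healing, and none of the 15 damage response factors had a member. Of 9 apoptosis genes 1 had a member, grim, in the intergenic DNA 6656 bp upstream. Of 6 JAK/STAT genes 1 did, the phosphatase gene Ptp61F, over an Rt1a element in its intron. Of 16 Wnt genes 2 did, the receptor genes fz and fz2, and of 12 Dpp genes 1 did, the receptor gene tkv. Of 13 Hippo and Fat genes 2 did, fj and sav, and of 9 EGFR genes 1 did, the antagonist gene sty. None of 9 matched Notch genes and none of 12 matched notum genes had a member. The share over all genes is not a matched background, since the lists differ in having regions at all. Other regions were nearest to 8121 of the 17683 genes, but to 13 of 14 JNK, 12 of 12 Dpp and 23 of 23 wing patterning genes. They were nearest to 0 of 5 fat body genes.

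Wing patterning factors had members at 5 of 23 genes, Bx, caup, ct, elB and rn, with 6 members in all. The rn member lay in a coding exon 267 bp downstream of the start, with a peak in 1 regenerating and 2 control libraries of 25 h and no other library. The Bx and Antp members, both in introns, had a peak in 1 control library of 0 h and 1 of 25 h. The sav member, 196 bp downstream of the start of this scaffold gene of the Hippo pathway (chr3R:23060906-23061760), had a peak in 13 libraries, all but the second control library of 0 h. A coding exon of Eip75B, a nuclear receptor gene of the ecdysone response, had a member that both regenerating and neither control library of 15 h had. Its fold was 3.09 and 3.76 in regenerating libraries of 15 h and 2.84 in 1 regenerating library of 25 h. The fz2 member, in a coding exon 680 bp from the start, had a peak in 2 regenerating and 1 control library of 25 h.

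Of the other lists, 1 of 8 Hox genes (Antp), 1 of 11 ecdysone genes (Eip75B), 1 of 17 Polycomb and trithorax genes (Trl) and 3 of 18 ribosomal protein genes (RpL10, RpL15 and RpS2) had a member. The Trl and RpS2 members lay in coding exons of ome and Muc30E. No heat shock gene of 12 had one, and none of 8 matched genes for histone variants His2Av, His3.3A and His3.3B and for histone chaperones, a list that holds neither the clustered histone genes nor cid. Markers of other cells were read the same way: 0 of 7 hemocyte, 0 of 9 myoblast, 0 of 8 neuronal and glial, 1 of 7 tracheal (sty) and 1 of 5 fat body genes (Adh) had a member. These counts hold by nearest start only. By gene body, kirre of the myoblast list held 4 members, 2 of them in coding exons, and the sty member lay in an intron of eIF5B. Nearest starts often belong to a neighbour of the gene in which a member lies, and with lists this short a single gene moves the share by several percentage points.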

How the data were processed

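ATAC-seq peak lists of 14 wing disc libraries were analysed, 1 for nucleosome-free and 1 for mononucleosome fragments of each library, called per library. STAR 2.4.0j, MACS2 and the build dm6 are named in the submitters' processing notes. Fragment length limits, the peak threshold, the transposase offset and any control track are not stated in any source used here. In the mononucleosome lists the name of each peak also reads nucleosome-free, and the class was taken from the list. Each deposited peak carries the authors' fold, a ratio over the caller's local background, with a deposited −log10 p and −log10 q. Read depth is not recorded. The pile-up and local background were solved from the authors' fold and p under a Poisson model, within 0.001 on the log10 p scale, for 99.96% of peaks, and the lowest background of each list stood for depth, from 5.83 to 10.0 fragments for mononucleosome and from 1.62 to 3.67 for nucleosome-free lists. These cover counting error only.

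Coordinates are 1-based on Release 6, with the annotation BDGP 6.54 of Ensembl release 115 and sequence from the RefSeq genome of the same build. Python 3.11.15 was used with scipy 1.17.1, pandas 2.3.3, numpy 2.4.6 and, for figures, matplotlib 3.10.9, and the scripts were tested on simulated data. Values per library were tested by exact permutation within times, or over all splits for L3, with Benjamini-Hochberg adjustment over 6 tests. Alternatives were a −log10 q of 5 or more, lists of equal length, a peak in at least 3 libraries, no nucleosome-free peak within 200 bp, other joining and annotation rules, and leaving out each library.

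The members, the gene lists and the tests were chosen with earlier results of these data known. Named regions are the 8 members of most libraries, the highest-ranking 4 per call at a time or with L3 and 5 per call over the time course, the genes with most members, up to 3 members per gene list, the 3 widest, the 3 on each side of the rule and the 4 highest-ranking over elements, where rank is the median percentile of the authors' fold within its list. For a call at a single time it is the lower percentile of the pair. Of 251 symbols 246 matched, 1 of them by an older name, and 1 symbol entered in error was left out. Correlations used 100000 permutations.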

Additional observations from a re-analysis of the deposited data

Results flagged for a closer look

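Regenerating and control libraries differed one way at 0 h and the other way at 25 h in 3 measures of the members. The number of members per library was lower in both regenerating libraries than in both control libraries at 0 h and higher at 25 h, and the 2 differences lay 262.5 members apart. The share of each library's mononucleosome regions that are members lay 2.14 percentage points apart in the same way. The number of members in coding exons lay 121 apart, and the share of other regions in coding exons changed direction in the same way. For each of the 3 the exact permutation p was 0.0556, two-sided, which is the smallest that 2 libraries per group at 2 times can give, so none passes 0.05. The 3 measures share their libraries and are not independent of each other. Groups of 2 libraries are too small for a test of single libraries that stand apart.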

How the results depend on the processing

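None of the 6 tests of values per library passed under any of the 22 to 23 other settings that gave a value, with adjusted p between 0.167 and 1.00. Directions turned in some. With −log10 q of at least 5, the width of members in regenerating less control libraries was -0.667 bp and in L3 less control libraries -1 bp. The share of members in L3 less control libraries was -0.0141 points with lists of equal length, -0.0304 without members within 200 bp of a nucleosome-free peak, -0.00911 where only nucleosome-free regions of at least 2 libraries excluded, and -0.0273 without members over transposable elements.

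With lists of equal length there were 816 members, 17.8% at promoters and 27.2% in coding exons, with a median of 2445 bp to the nearest nucleosome-free peak, 14 lost at 0 h, 31 gained at 15 h, 4 more frequent in regenerating discs, 11 more frequent in L3 than control discs and 2 the reverse. With −log10 q of at least 5, coding exons held 32.0% and 1 member was more frequent in control than L3 discs. At least 3 libraries left 730 members with a median width of 467 bp. Where only nucleosome-free regions of at least 2 libraries excluded, 39 members were lost at 0 h, 95 gained at 15 h, 53 lost at 25 h and 47 more frequent in L3 than control discs, at a median of 1069 bp. Within 500 bp of starts lay 21.0%. Chosen after seeing the data, 2 more settings were run. Without members over elements 8 were gained at 0 h and 2 were more frequent in regenerating discs. Without the 15 h libraries 24 were more frequent in regenerating and 39 in control discs (at least 3 of 4 against at most 1), 73 in L3 than control discs and 20 the reverse, and 33.1% were in coding exons. For these shifts the cause was not tested.

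Leaving out 1 library at a time, regenerating less control libraries ran from -16.8 members (without the first control library of 15 h) to 68.2. It was -10.8 without the first regenerating library of 15 h. The share ran from -0.0738 to 0.454 points and was -0.0581 without that regenerating library. L3 less control libraries ran from -42.3 to 72.3 members, from -0.481 to 0.469 points and from -12.3 to 23.6 bp in width, the lowest each without the second L3 library. Calls at a time need only 1 library where its replicate is left out, so their counts grow by construction: 16 to 65 gained and 24 to 147 lost at 0 h, 55 to 196 and 46 to 249 at 15 h, 84 to 303 and 33 to 111 at 25 h. Over the time course 7 to 24 were more frequent in regenerating and 6 to 12 in control discs, and 31 to 113 were more frequent in L3 than control discs and 3 to 14 the reverse.

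Deviations of same-numbered libraries correlated little, by -0.0938 to 0.0119 over all regions and by -0.0515 to 0.0986 over members. Each group had 2 libraries and regions are not replicates, so these values cannot decide whether replicate numbers pair the samples. With the replicate block the differences stayed 30 members, 0.215 points and 10.4 bp (exact permutation p = 0.750, 0.750 and 0.250).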

Other observations

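The chromosome arms held members at unlike densities. Members per Mb were 16.3 on chromosome 4, 11.3 on 2R, 9.57 on 3L, 8.67 on 3R, 8.25 on 2L and 8.16 on X, while other regions ran from 109 on 3R to 139 on chromosome 4. Pseudogenes were the nearest start for 4.27% of members, against 0.897% of other regions, and non-coding RNA genes for 12.3% of members, against 14.8%. Members over transposable elements had a median of 4 libraries, against 3 for members without, and a median of 2668 bp to the nearest nucleosome-free peak, against 2026 bp. Other regions whose nucleosome-free peak was called in only 1 library numbered 435, or 2.87%.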
